A study of Mus musculus with 16 samples.

Results

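7 genes of the interferon gamma response were followed through 16 mouse tumours: the receptor chain gene Ifngr1, the transcription factor genes Irf1 and Irf8, the guanylate-binding protein genes Gbp2b and Gbp5, the feedback inhibitor gene Socs1, and Nos2, which encodes inducible nitric oxide synthase. They were taken by name from the 770 genes of the NanoString mouse PanCancer Immune panel, an assay that counts colour-coded probes on unamplified RNA, and all 7 were present. 8 tumours came from MC38, a colorectal cancer line of the mouse, and 8 from E0771, a mouse breast cancer line, each injected with matrigel at the right shoulder. Checkpoint immunotherapy (PD-1 together with CTLA-4 blockade) was given to every mouse, the controls included, and the tumours were excised once the imaging of day 5 was done, so no untreated tumour is compared here. The study imaged hypoxia with the PET tracer fluoromisonidazole, and each tumour carries a label of hypoxic or normoxic. The MC38 groups were 4 normoxic tumours (mice 4, 7, 10 and 21) and 4 hypoxic tumours (mice 12, 14, 17 and 25). The E0771 groups were 5 normoxic tumours (mice 4, 17, 38, 65 and 71) and 3 hypoxic tumours (mice 12, 22 and 55). The labels name separate mice within a line, and give no strain, sex or age. A tumour is a mixture of cancer, immune and stromal cells, so fewer cells of a type and less RNA per cell cannot be told apart.

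Interferon gamma is a cytokine made mainly by T cells and natural killer cells. It binds a receptor of Ifngr1 and Ifngr2 chains, which activates the kinases Jak1 and Jak2. The signal reaches genes through GAS elements, and the Irf factors induced in this way bind ISRE elements, so the response spreads from Irf1 to later genes such as the guanylate-binding GTPases and Nos2, while Socs1 blocks the Jak kinases and limits the response. Irf8 is both an interferon-induced factor and a standing regulator of macrophages, dendritic cells and B cells, and Irf1, Gbp5 and Socs1 are also induced by other interferons or cytokines.

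The letters upstream of the transcription starts are shown because the genes differ in which of these elements lie there. RefSeq windows of assembly GRCm38.p6, from 250 bases before to 50 bases after the start, were searched for the GAS letters TTCNNNGAA, a palindrome, and for the ISRE core letters GAAANNGAA on both strands. 6 of the 7 genes had a window, Nos2 being the other, and 5 of them held a match. Counted by window, 5 of their 8 windows held one. Over all 32851 windows, 8.3% held the GAS letters, 8.56% the ISRE core and 15.8% either. In the stretches below, written 5′ to 3′ on the gene's strand, capitals mark the matches.
Irf1: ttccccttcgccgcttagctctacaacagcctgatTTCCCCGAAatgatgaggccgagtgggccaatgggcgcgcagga
Irf8: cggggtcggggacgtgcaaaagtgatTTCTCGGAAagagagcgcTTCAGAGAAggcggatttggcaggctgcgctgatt
Gbp2b: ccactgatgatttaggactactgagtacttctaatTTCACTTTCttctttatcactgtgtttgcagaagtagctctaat
Gbp5: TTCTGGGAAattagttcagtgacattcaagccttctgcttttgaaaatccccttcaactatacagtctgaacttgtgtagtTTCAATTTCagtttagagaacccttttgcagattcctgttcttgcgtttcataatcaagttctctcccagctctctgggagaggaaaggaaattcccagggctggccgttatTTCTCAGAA
Socs1: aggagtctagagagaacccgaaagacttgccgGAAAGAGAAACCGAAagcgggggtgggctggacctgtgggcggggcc
The Irf1 stretch (chr11:53769889-53769967, plus strand) holds a GAS match that begins 90 bases before the start, and that of Irf8 (chr8:120736161-120736239, plus strand) holds 2, at 171 and 153 bases. The Gbp2b stretch (chr3:142594676-142594754, plus strand) holds an ISRE core on the opposite strand at 136 bases and no GAS letters in its window. The Gbp5 stretch (chr3:142496689-142496890, plus strand) runs between GAS matches at 245 and 52 bases, with an ISRE core on the opposite strand at 164 bases. The Socs1 stretch (chr16:10785573-10785651, minus strand) holds 2 ISRE cores at 83 and 77 bases that overlap each other. The Ifngr1 window and the second windows of Irf1 and Irf8 held neither set of letters. Gbp5 (chr3:142496934-142522344) and Gbp2b (chr3:142594816-142619179) belong to 1 gene cluster, with 72471 bases between them. Whether other genes lie in that interval was not looked up. A match of letters is a description of the window and shows no binding.

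Values are the deposited normalized counts, which have the same geometric mean of 20 housekeeping genes, 780, in every tumour. The counts recovered before scaling summed to between 180274 and 890239 per tumour (median 531770), and 5 tumours lay under 350000: E0771 hypoxic 12 and 22, E0771 normoxic 65, and MC38 hypoxic 14 and 25. The negative-control probes, put on the same scale, averaged between 2.69 and 24.6. 712 genes with a mean of at least 24.0 were tested, and all 7 genes were among them. In MC38 the median gene of the panel was lower by 1.27 on the log2 scale in hypoxic than in normoxic tumours, and in E0771 by 0.36, so a value for a member is read against that shift.

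Taken as a group in MC38, 3 of the 7 genes fell in hypoxic tumours (Gbp2b, Irf8 and Ifngr1), none rose, and 4 did not pass the test (Nos2, Socs1, Irf1 and Gbp5). Of the whole panel, 48.0% passed as lower and 0.562% as higher (limma on log2(value + 1), adjusted p under 0.05 over 712 genes), so the members' share of falls was near the panel's. Their median log2 difference was -1.15 against the panel's -1.27, with a spread from -2.88 for Gbp2b to 0.28 for Gbp5. Groups that did not overlap were as common as 24.3% of the panel on the lower side and 0.562% on the higher side, and 1 member, Ifngr1, was so. In E0771 none of the 7 passed, where 0% of the panel passed in either direction. There 45 genes had an unadjusted p under 0.05, the smallest adjusted p of limma was 0.62, and groups that did not overlap were 0.562% of the panel on the lower side and 0.140% on the higher side, none of them a member.

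**Figure D1:**
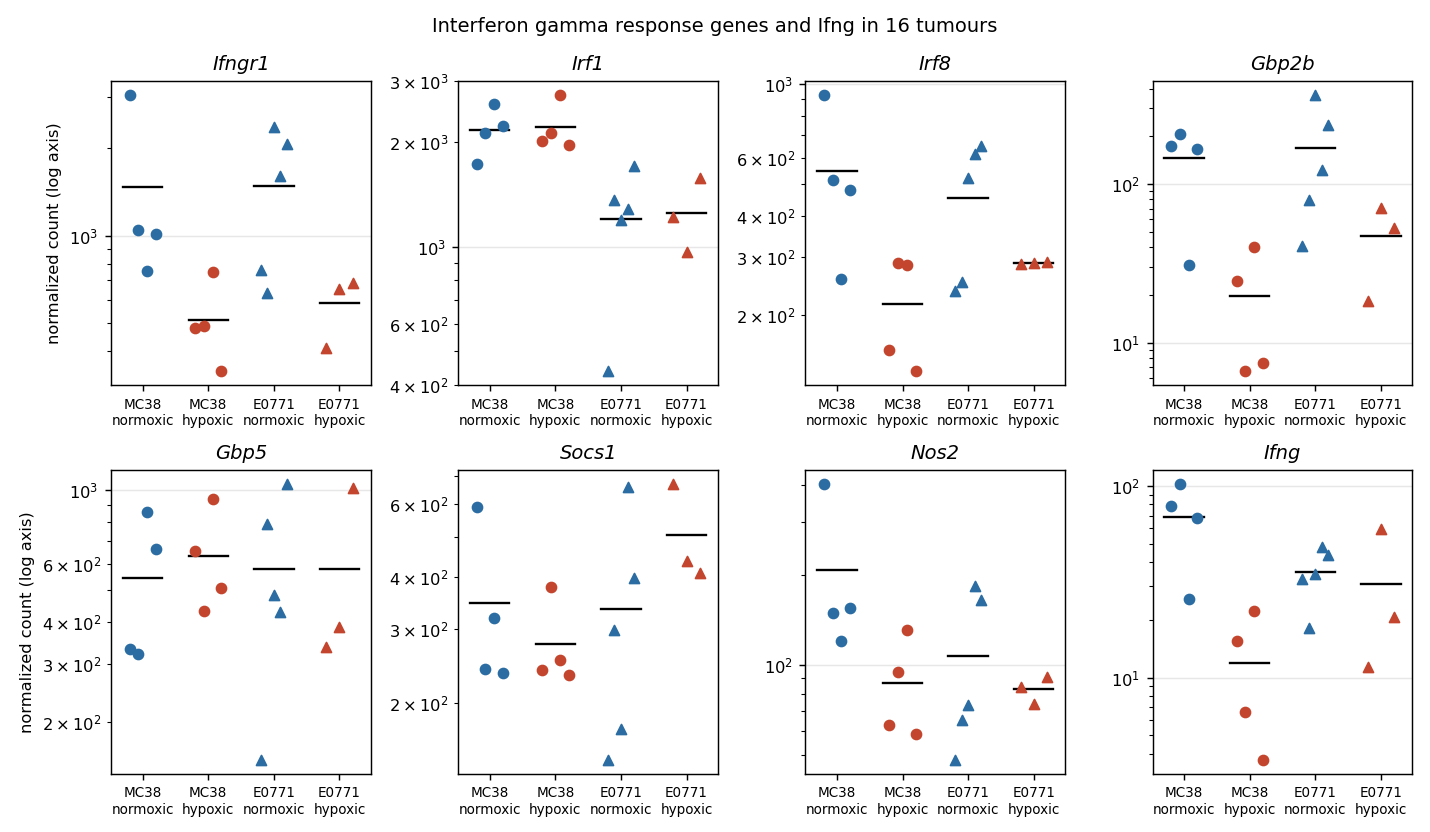
Normalized counts (log axis, each panel with its own range) of the 7 genes and of Ifng in each tumour, blue for normoxic and red for hypoxic, circles for MC38 and triangles for E0771; black bars are group means, and sideways spread only separates the points. The 4 hypoxic MC38 tumours lie below all normoxic ones for Ifngr1 (340 to 746 against 756 to 3060) and for Ifng, whereas Irf1 and Gbp5 overlap in both lines.

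The ligand gene Ifng is given first for reference, although it is not one of the 7 genes. In normoxic MC38 tumours 4, 7, 10 and 21 its normalized count was 78.2, 103, 25.9 and 68.1, and in hypoxic tumours 12, 14, 17 and 25 it was 15.5, 6.61, 22.3 and 3.73. All hypoxic MC38 tumours lay below all normoxic ones, a log2 difference of -2.53 ± 0.63 (SE; limma, adjusted p = 0.00812). The values of hypoxic tumours 14 and 25 rest on 4 and 3 counts before scaling and lie at or under the negative-probe means of 6.82 and 5.9. In E0771 the groups overlapped, at 32.8, 18.2, 34.8, 47.8 and 43.7 in normoxic tumours 4, 17, 38, 65 and 71 against 11.4, 59.8 and 20.8 in hypoxic tumours 12, 22 and 55, of which the 11.4 of tumour 12 rests on 5 counts under a negative-probe mean of 17.4. The log2 difference there was -0.45 ± 0.65 (SE; limma, adjusted p = 0.836).

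Ifngr1 (chr10:19591949-19610229), the ligand-binding chain of the receptor, was lower in hypoxic MC38 tumours. Its normalized counts were 3060, 1047, 756 and 1011 in normoxic MC38 tumours 4, 7, 10 and 21, and 478, 486, 746 and 340 in hypoxic tumours 12, 14, 17 and 25. The groups did not overlap, although normoxic 10 and hypoxic 17 nearly met, and normoxic 4 stood highest of the 16 tumours. The mean was 1469 ± 1069 (SD, n = 4) against 513 ± 169 (SD, n = 4), a fall of 1.34 ± 0.48 on the log2 scale (SE; limma, adjusted p = 0.0293), or 2.54-fold. That fall differed from the panel's median shift by -0.07, and with each tumour centred on its median gene the difference was -0.22 (limma, adjusted p = 0.66). Without normoxic 4 it was -0.91 (adjusted p = 0.12), and the call was also lost without normoxic 7, hypoxic 12, hypoxic 14 or hypoxic 25. In E0771 the normoxic tumours split into 2 of low value (761 and 631 in tumours 4 and 17) and 3 of high value (2369, 1609 and 2072 in tumours 38, 65 and 71), and the hypoxic tumours 12, 22 and 55 had 408, 655 and 688. Only normoxic 17 fell inside the hypoxic range, and the log2 difference of -1.20 ± 0.49 (SE, 95% interval -2.24 to -0.16) did not pass (limma, adjusted p = 0.62).

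Irf1 (chr11:53770014-53778374), the first transcription factor of the response, did not pass between hypoxic and normoxic tumours in either line and was lower in E0771 than in MC38. MC38 normoxic tumours 4, 7, 10 and 21 had 1737, 2125, 2586 and 2227, and hypoxic tumours 12, 14, 17 and 25 had 2022, 2128, 2741 and 1967. The ranges lay over each other, with a log2 difference of 0.03 ± 0.36 (SE, 95% interval -0.72 to 0.79; limma, adjusted p = 0.947). E0771 normoxic tumours 4, 17, 38, 65 and 71 had 438, 1360, 1195, 1288 and 1714, and hypoxic tumours 12, 22 and 55 had 1218, 968 and 1574. Tumour 4 stood far below the other E0771 tumours, and the log2 difference of hypoxic from normoxic was 0.17 ± 0.37 (SE, 95% interval -0.61 to 0.95; limma, adjusted p = 0.911).

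All 8 E0771 tumours (438 to 1714) lay below all 8 MC38 tumours (1737 to 2741) for Irf1. Averaged over hypoxia status, Irf1 was lower in E0771 by 0.90 ± 0.26 on the log2 scale (SE; limma, adjusted p = 0.0245), a 1.87-fold difference with means of 1219 and 2192. It was the only one of the 7 genes to pass between the lines, where 8.85% of the panel passed as lower in E0771 and 4.78% as higher, and where groups did not overlap for 1.97% on the lower and 1.69% on the higher side. The other 6 had log2 differences from -0.48 (Nos2) to 0.75 (Gbp2b). The call was lost after centring on each tumour's median gene (-0.88, adjusted p = 0.0534) and without MC38 hypoxic 17, MC38 normoxic 21, E0771 hypoxic 12 or E0771 hypoxic 22, each with a difference between -0.90 and -0.82. Batch records were not among the files used here, so batch and line cannot be told apart.

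Irf8 (chr8:120736358-120756694), the factor shared by the interferon response and myeloid development, was lower in hypoxic MC38 tumours. Normoxic tumours 4, 7, 10 and 21 had 929, 515, 257 and 480, and hypoxic tumours 12, 14, 17 and 25 had 157, 288, 284 and 135. Only normoxic 10 fell inside the hypoxic range, and the log2 difference was -1.27 ± 0.43 (SE; limma, adjusted p = 0.0257), a 2.41-fold fall equal to the panel's median shift. Centred on the median gene it was -0.15 (limma, adjusted p = 0.755), and the call was lost without normoxic 4, normoxic 7, hypoxic 12 or hypoxic 25. In E0771 the normoxic values were 237, 252, 519, 613 and 648 in tumours 4, 17, 38, 65 and 71, and the hypoxic tumours 12, 22 and 55 were almost equal at 285, 289 and 289. The hypoxic values lay between the low and the high normoxic tumours, the same split of tumours as for Ifngr1, and the log2 difference of -0.53 ± 0.45 (SE) did not pass (limma, adjusted p = 0.664).

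Gbp2b (chr3:142594816-142619179), which encodes an interferon-induced GTPase known in the mouse for its action on vacuoles of intracellular pathogens, had the largest difference of the 7 in MC38. Its counts were 175, 208, 30.9 and 167 in normoxic tumours 4, 7, 10 and 21, and 24.5, 6.61, 40.1 and 7.45 in hypoxic tumours 12, 14, 17 and 25. Normoxic 10 sat within the hypoxic range, and the other 3 normoxic tumours were above it. Gbp2b fell by 2.88 ± 0.77 on the log2 scale (SE; limma, adjusted p = 0.00956), or 7.35-fold, which is 1.61 beyond the panel's median shift, and 8.71% of the panel had a lower difference. The call held with each tumour left out in turn (-3.51 to -2.52) and with centring on the median gene (-1.76, limma, adjusted p = 0.0277), but not without the 5 tumours of fewest counts (-1.87, adjusted p = 0.206), which leaves 2 hypoxic MC38 tumours. Hypoxic 14 and 25 are among those 5, and their Gbp2b values rest on 4 and 6 counts before scaling, at the negative-probe means of 6.82 and 5.9. With background subtracted in every tumour the difference was -3.79 (limma, adjusted p = 0.0189). Subtracted values were held at a floor, which hypoxic 14 reached (6.61 against 6.82), so the size of that difference rests partly on the floor.

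In E0771 Gbp2b counts were 40.4, 79.0, 365, 122 and 234 in normoxic tumours 4, 17, 38, 65 and 71 and 18.2, 70.4 and 53.2 in hypoxic tumours 12, 22 and 55. 4 normoxic tumours were above all hypoxic ones, and only normoxic 4 fell inside their range. The log2 difference was -1.61 ± 0.80 (SE, 95% interval -3.29 to 0.07; limma, adjusted p = 0.62). The value of hypoxic 12 rests on 8 counts, with a negative-probe mean of 17.4 in that tumour.

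Gbp5 (chr3:142496934-142522344), which encodes a GTPase of the same family known to promote inflammasome assembly, did not follow Gbp2b. Normoxic MC38 tumours 4, 7, 10 and 21 had 333, 321, 857 and 665, and hypoxic tumours 12, 14, 17 and 25 had 654, 432, 941 and 506. Normoxic 10, the lowest normoxic tumour for Gbp2b, was the highest for Gbp5, and the groups overlapped throughout (log2 difference 0.28 ± 0.54, SE, 95% interval -0.84 to 1.41; limma, adjusted p = 0.666). E0771 normoxic tumours had 154, 789, 483, 430 and 1045 in tumours 4, 17, 38, 65 and 71, and hypoxic tumours 12, 22 and 55 had 338, 387 and 1016, with both group means at 580 (log2 difference 0.08 ± 0.55, SE; limma, adjusted p = 0.963).

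The log2 ratio of Gbp2b to Gbp5 within a tumour cancels most of that tumour's scaling. The 1 added to each value does not cancel, and weighs most where Gbp2b is low. In MC38 hypoxic 14 and 25 and E0771 hypoxic 12, Gbp2b was 0.97, 1.26 and 1.05 times the negative-probe mean, so their ratios are uncertain. This ratio was chosen after the values had been seen, and is given as a description with no test. In MC38 it was -0.92, -0.62, -4.75 and -1.99 in normoxic tumours 4, 7, 10 and 21, and -4.68, -5.83, -4.52 and -5.91 in hypoxic tumours 12, 14, 17 and 25. Normoxic 10 thus had the ratio of a hypoxic tumour, and the difference of means was -3.16. In E0771 the ratio was -1.90, -3.30, -0.40, -1.81 and -2.15 in the normoxic and -4.14, -2.44 and -4.23 in the hypoxic tumours, with a difference of -1.69 and overlapping groups. The ratio of Irf8 to Irf1, treated the same way, differed by -1.30 in MC38 and by -0.70 in E0771.

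Socs1 (chr16:10783808-10785536), the inhibitor of the Jak kinases, did not pass in either line. MC38 normoxic tumours 4, 7, 10 and 21 had 590, 241, 319 and 235, and hypoxic tumours 12, 14, 17 and 25 had 239, 379, 254 and 234. Normoxic 4 stood above the other tumours, which ran from 234 to 379 in both groups together (log2 difference -0.25 ± 0.44, SE; limma, adjusted p = 0.648). E0771 normoxic tumours 4, 17, 38, 65 and 71 had 146, 299, 173, 658 and 398, and hypoxic tumours 12, 22 and 55 had 670, 436 and 409. All 3 hypoxic E0771 tumours were above 4 of the 5 normoxic ones, with a log2 difference of 0.77 ± 0.46 (SE, 95% interval -0.19 to 1.74; limma, adjusted p = 0.62), which took the opposite sign, -0.43, under scaling on the positive-control probes. For the mean of both lines the difference was 0.26 ± 0.32 (SE; limma, adjusted p = 0.496), and centred on the median gene it became 1.04 and passed as higher (limma, adjusted p = 0.0334).

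Nos2 (chr11:78920787-78960226), whose enzyme makes nitric oxide from arginine in activated macrophages, just missed the threshold in MC38. Normoxic tumours 4, 7, 10 and 21 had 405, 149, 120 and 155, and hypoxic tumours 12, 14, 17 and 25 had 62.9, 94.2, 131 and 58.4. The groups overlapped only through normoxic 10 and hypoxic 17, and the log2 difference was -1.15 ± 0.49 (SE; limma, adjusted p = 0.0611); it passed without normoxic 10 (-1.35, adjusted p = 0.0338) or without hypoxic 17 (-1.37, adjusted p = 0.0416). Centred on the median gene it was -0.03 (limma, adjusted p = 0.966). E0771 normoxic tumours 4, 17, 38, 65 and 71 had 48.0, 65.4, 73.2, 183 and 165, and hypoxic tumours 12, 22 and 55 had 84.4, 73.9 and 91.0. The hypoxic values lay inside the normoxic range (log2 difference -0.17 ± 0.51, SE; limma, adjusted p = 0.922). The arginases compete with Nos2 for arginine, and both passed as lower in hypoxic MC38 tumours: Arg1 had a mean of 667 ± 817 (SD, n = 4) against 15761 ± 24987 (SD, n = 4; median 3538, with 53233 in normoxic 4), a log2 difference of -4.04 ± 1.01 (SE; limma, adjusted p = 0.00812), and Arg2 differed by -2.12 ± 0.68 (SE; limma, adjusted p = 0.0197). With each tumour left out the Arg1 difference ran from -4.80 to -3.03 and passed throughout, whereas Arg2 ran from -2.58 to -1.80 and lost its call when mouse 4, mouse 7 or mouse 25 of MC38 was left out. In E0771 they differed by -1.13 and -0.74 and did not pass (limma, adjusted p = 0.699 and 0.704).

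**Figure D2:**
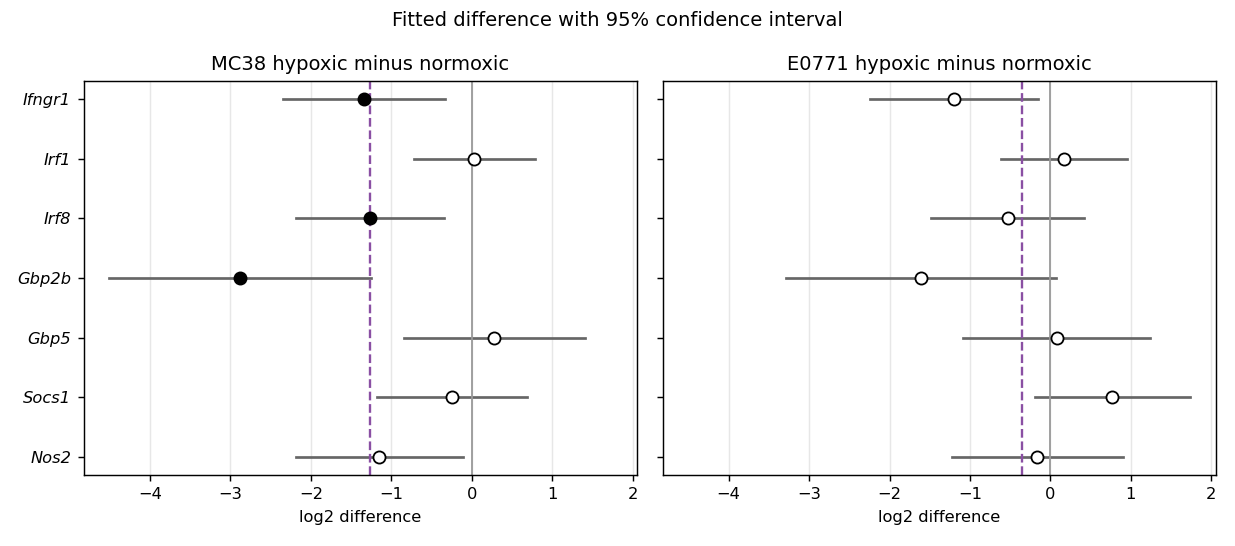
Fitted log2 difference of hypoxic minus normoxic tumours for each gene in MC38 (left) and E0771 (right), with its 95% confidence interval; filled points passed at an adjusted p under 0.05, the grey line is 0 and the dashed line is the panel's median gene (-1.27 and -0.36). In MC38 the interval of Irf1 (-0.72 to 0.79) and those of Gbp5 and Socs1 lie to the right of the dashed line, and only the point of Gbp2b lies well to its left.

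Over both lines the same 3 genes passed as lower in hypoxic tumours, Gbp2b by -2.24 ± 0.56, Ifngr1 by -1.27 ± 0.34 and Irf8 by -0.90 ± 0.31 on the log2 scale (SE; limma, adjusted p = 0.0184, 0.0184 and 0.0328). None of the 7 passed as higher. Of the panel, 41.4% passed as lower and 0.702% as higher, and the median gene was at -0.89 against -0.66 for the members. Centred on the median gene, Gbp2b was at -1.47 and passed, while Ifngr1 at -0.50 and Irf8 at -0.12 did not (limma, adjusted p = 0.0195, 0.154 and 0.71). Irf8 lost its call in 10 of the 16 fits that left out a tumour. Without E0771 hypoxic 12, a tumour of few counts, none of the 3 passed, but neither did any gene of the panel, where 300 passed in the full fit. Gbp2b was then at -1.96, Ifngr1 at -1.15 and Irf8 at -0.90 (limma, adjusted p = 0.0662, 0.0662 and 0.0829). The fit without the 5 tumours of fewest counts, described at the end, leaves 1 hypoxic E0771 and 2 hypoxic MC38 tumours. In it the lone tumour is assumed to vary like the other groups. The hypoxia difference did not differ detectably between the lines for any of the 7 genes. E0771 minus MC38 values of that difference ran from -0.21 (Gbp5) to 1.27 (Gbp2b), with adjusted p from 0.369 to 0.932 (limma), where 0% of the panel passed, 133 genes had an unadjusted p under 0.05, and the panel's median was 0.76. For Gbp2b the 95% interval of the difference between lines, -1.08 to 3.61, is wide.

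The rest of the pathway was read from lists of its upstream, receptor and signalling, and target genes. The signalling list also holds the members Ifngr1 and Socs1, and the target list Irf1, Irf8, Gbp2b, Gbp5 and Nos2, so counts by list include them. Of 38 other pathway genes on the panel 36 were tested, and in MC38 13 of them passed as lower in hypoxic tumours and none as higher, with a median log2 difference of -0.71. That share lay under the panel's 48.0%, whose median was -1.27. The upstream list holds Ifng itself and genes that drive its production. Of its 10 genes tested, 7 passed as lower, Ifng among them, with a median of -1.81. Tbx21, the T-bet factor that switches on Ifng, differed by -2.66 ± 0.61, Stat4, the transducer of interleukin 12, by -2.66 ± 0.70, and Il12b, a subunit of interleukin 12, by -2.57 ± 0.69 (SE; limma, adjusted p = 0.00732, 0.00855 and 0.00956). Of the 6 receptor and signalling genes 3 passed as lower: Jak2 (-1.65), Ifngr1 (-1.34) and Jak1 (-0.93). The call of Jak2 was lost in 5 of the 16 fits that left out a tumour and that of Jak1 in 6; without normoxic 4 their differences were -0.97 and -0.64, and centred on the median gene Jak1 was at 0.19.

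Of the 27 target genes, 6 passed as lower in MC38 and 21 did not pass, with a median of -0.11, where 48.0% of the panel passed as lower. The 3 lowest were Gbp2b, Ciita (-2.27 ± 0.63, SE; limma, adjusted p = 0.011), the master regulator of MHC class II, and H2-Eb1 (-1.93 ± 0.69, SE; limma, adjusted p = 0.0292; -1.31 and not passing without normoxic 4), a class II chain, and the others were Irf8, H2-Aa and Fas. Ciita and the class II genes are also made by dendritic and B cells without interferon gamma. In the Irf family 2 of 7 passed as lower in MC38, Irf4 (-2.72 ± 0.69, SE; limma, adjusted p = 0.00812), a factor of lymphocytes, and Irf8, and the family's median was -0.43, so its share of falls was also under the panel's. In MC38 hypoxic 25 Irf4 was 4.97, under that tumour's negative-probe mean of 5.9. Ciita and Stat4 (both 7.45) and Il12b (8.69) lay near that mean there, so the sizes of these falls are uncertain. In E0771 none of these lists held a gene that passed, and the medians were -0.77 for upstream, -0.35 for receptor and signalling, -0.25 for target and -0.46 for Irf genes. Socs3, another feedback inhibitor, had the largest positive value of these E0771 lists, 1.17 ± 0.53 (SE; limma, adjusted p = 0.62).

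**Figure D3:**
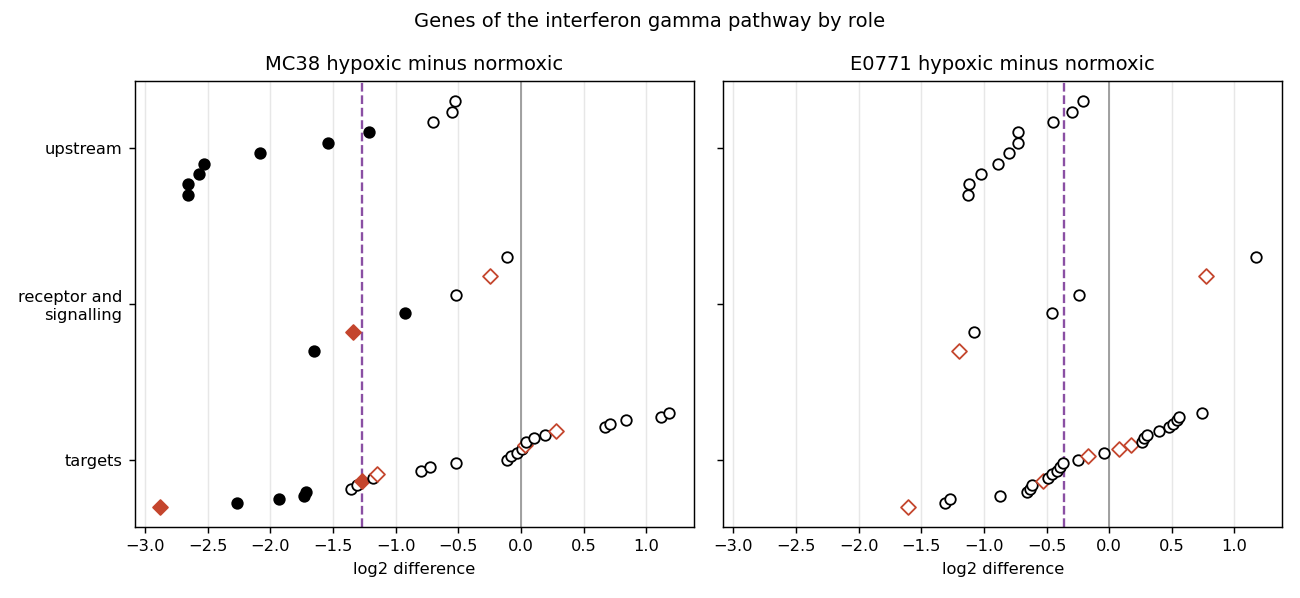
Log2 difference of hypoxic minus normoxic tumours for each tested gene of the upstream (10), receptor and signalling (6) and target (27) lists, in MC38 (left) and E0771 (right); filled symbols passed at an adjusted p under 0.05, red diamonds are the 7 genes, the grey line is 0 and the dashed line is the panel's median gene. In MC38 the upstream genes, Ifng included, run from -2.66 to -0.53 with a median of -1.81, while the targets spread from -2.88 to 1.18 with a median of -0.11.

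Between the lines, 5 of 27 target genes passed as lower in E0771 and 2 as higher, where 8.85% of the panel passed as lower and 4.78% as higher. Cxcl10, a chemokine that draws T cells, had a mean of 674 in E0771 and 7126 in MC38 (log2 difference -3.12 ± 0.42, SE; limma, adjusted p = 6.81e-05). Ido1, a tryptophan-degrading enzyme, differed by -2.86 ± 0.32, and Cxcl11, another T-cell chemokine, by -2.26 ± 0.42 (SE; limma, adjusted p = 8.74e-06 and 0.00122). In E0771 Ido1 was 11.7 to 24 in normoxic and 9.12 to 17.6 in hypoxic tumours. Hypoxic 12 (9.12) and hypoxic 22 (at most 17.6) lay under their negative-probe means of 17.4 and 24.6, which limits what can be said of the size of the Ido1 difference. Irf1 and Psmb10, an immunoproteasome subunit, were the other 2 that were lower, and H2-Ab1 (1.68) and Icam1 (1.47) were higher. The call of H2-Ab1 was lost in 11 of the 16 fits that left out a tumour, and that of Icam1 in none of them.

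Cell-type marker genes moved with the same comparison in MC38. The summed count of 6 T-cell markers was 563 to 1132 in normoxic and 137 to 488 in hypoxic MC38 tumours, with 3 of 6 passing as lower, where 48.0% of the panel passed so. The sum of 7 macrophage markers was 5784 to 64580 in normoxic and 1421 to 5704 in hypoxic tumours, with 5 of 7 passing as lower. For the pan-leukocyte gene Ptprc the level was 440 to 1702 against 64.6 to 533, a log2 difference of -1.78 that did not pass (limma, adjusted p = 0.0576). Of the tested markers of other cells, 2 of 5 for natural killer cells, 4 of 4 for B cells, 3 of 4 for dendritic cells, 4 of 5 for neutrophils, 1 of 4 for endothelial cells and 3 of 5 for fibroblasts passed as lower; of 3 epithelial genes 1 was lower and 1, Msln, higher. No marker value was at or under 1 in any tumour, but some lay under their tumour's negative-probe mean. Ms4a1, Pax5 and Cxcr1 were 1.65 in MC38 hypoxic 14, where that mean was 6.82. Xcr1 was 1.24 in MC38 hypoxic 25 (mean 5.9), and Cd79b was 2.28 in E0771 hypoxic 12 (mean 17.4). Such values limit what can be said of the size of the B-cell, dendritic-cell and neutrophil differences. In E0771 none of these markers passed, while the summed T-cell markers were 239 to 3242 in normoxic and 198 to 838 in hypoxic tumours. The part of cell composition in the falls of Gbp2b, Irf8 and Ifngr1 was not tested.

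The level of Ifng was compared with each gene across the 8 tumours of a line, 14 relations in all. In MC38 Gbp2b followed Ifng most closely, with Pearson's r = 0.98 over n = 8 (exact permutation p = 0.000322, adjusted 0.00451) and Spearman's rho = 0.95 (exact permutation p = 0.00114, adjusted 0.00799). Without the 2 tumours farthest from the median of Ifng, 7 and 25, r was 0.99, after taking deviations from each tumour's hypoxia-status mean it was 0.96, and centred on the median gene it was 0.96 (exact permutation, adjusted p = 0.00451). Ifngr1 and Irf8 each had r = 0.84 (exact permutation p = 0.00528 and 0.0101, adjusted 0.037 and 0.0473; rho = 0.95 and 0.81), but 0.16 and 0.00 once centred on the median gene. The median gene itself had r = 0.95 with Ifng in MC38. For Nos2 r was 0.78 (exact permutation, adjusted p = 0.0595; rho = 0.88, adjusted 0.0338). Irf1, Gbp5 and Socs1 had r of -0.04, -0.25 and 0.19. After centring they had -0.78, -0.64 and -0.91 (exact permutation, adjusted p = 0.12, 0.203 and 0.0304). Centring subtracts the same median from both genes, and Ifng follows that median. A gene that changes little is therefore drawn towards a negative r, and these centred values are not read as an inverse relation to Ifng.

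In E0771 no relation with Ifng passed. The largest were Ifngr1 (r = 0.61) and Gbp2b (r = 0.60; exact permutation p = 0.112 and 0.121, adjusted 0.281 for both, n = 8), and without tumours 12 and 17, the 2 farthest from the median of Ifng, r fell to 0.19 and 0.25, so these values rest on those tumours. After centring on the median gene Gbp2b had r = -0.23. Whether the relation differs between the lines was not tested. The Ifng and Gbp2b counts at the low end in MC38 are the ones at the level of the negative probes. Leaving out MC38 normoxic 10, normoxic 21, hypoxic 17 or hypoxic 25 left 1 of the 14 relations that passed, and leaving out E0771 hypoxic 22 gave 5.

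**Figure D4:**
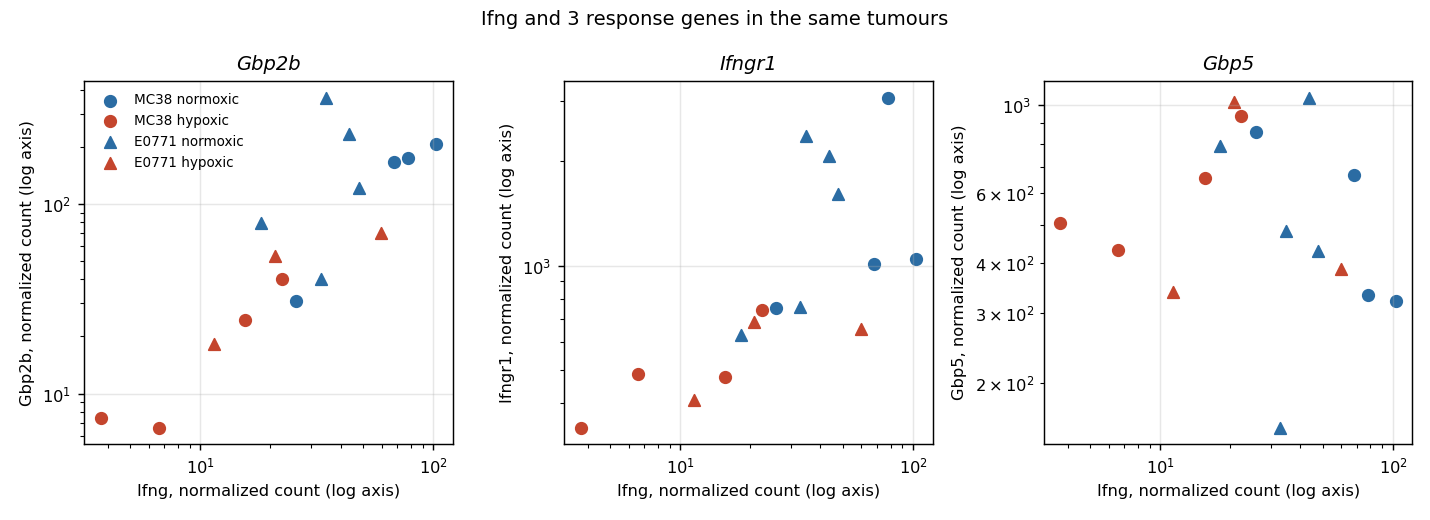
Normalized count of Gbp2b (left), Ifngr1 (middle) and Gbp5 (right) against that of Ifng in the same tumour, both axes logarithmic; circles are MC38, triangles E0771, blue normoxic and red hypoxic. The MC38 circles of Gbp2b lie along a rising line (r = 0.98) on which the low normoxic tumour 10 falls near the hypoxic ones, while those of Gbp5 show no such line (r = -0.25).

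The patterns of the members were compared over all 16 tumours. Likeness was the root mean square difference of gene-centred log2 values, in which 0 is an identical pattern. Ifngr1 and Irf8 were the closest members to each other (0.39), followed by Irf8 and Nos2 (0.44) and Irf1 and Gbp5 (0.57), whereas Gbp2b was far from Gbp5 (1.75) and Irf1 (1.81). The measure grows with a gene's own spread, whose SD was 1.63 for Gbp2b and 0.63 to 0.90 for the other members. Even the member nearest to Gbp2b, Ifngr1, was at 0.97, and the 0.57 of Irf1 and Gbp5 was little under their own SDs of 0.63 and 0.73. Outside the 7, genes most like Ifngr1 included the leukocyte surface genes Selplg (0.28) and C3ar1 (0.30). Those most like Irf8 were Irf5 (0.18), C5ar1 (0.23) and C1ra (0.23). The nearest to Gbp2b were C1s1 (0.60), the T-cell gene Cd5 (0.60) and Stat4 (0.66). The genes near Gbp5 included Irgm2 (0.47) and Herc6 (0.52), and Irf1 was nearest to Irgm2 (0.26), Bid (0.31) and Mcam (0.34), so that Irgm2, another interferon-induced GTPase gene, was near both. Socs1 was nearest to Cebpb (0.31), Tap2 (0.37) and Jak3 (0.38), and Nos2 to Tnfrsf14 (0.42), Sbno2 (0.42) and Ccl7 (0.43). The median panel gene was at 0.82 to 1.35 from a member. These distances come from the 16 shared tumours and their common scaling, and carry no test.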

How the data were processed

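The deposited value table holds, for 16 tumours, the authors' normalized signal for 784 probes: 770 genes, 8 negative and 6 positive controls. How it was normalized is not given in the sources used here. From the values, the geometric mean of 20 housekeeping genes is equal in all tumours, and gene values are whole multiples of a step of 0.6313 to 3.52 for at least 99.22% of genes per tumour (within 0.1 of a step), which gave the recovered counts. Control probes were not scaled, and were multiplied by the step here. No columns were left unmapped.

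Genes with a mean of at least 24.0 (mean plus 2 SD of the negative probes) were tested as log2(value + 1), which understates differences of low genes. limma 3.58.1 (R 4.3.3; eBayes with trend, two-sided) fitted 4 group means over all 16 tumours, and 5 contrasts were adjusted by Benjamini-Hochberg over 712 genes at a threshold of 0.05. Relations with Ifng used exact two-sided permutation tests (scipy 1.17.1). The labels' mouse numbers are taken as separate animals, and p-values measure only the spread between these tumours.

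Named were all 7 members, in each list the genes with the largest changes that passed (else the smallest p), and the 3 genes of most similar pattern to each member, some of which are not reported here. The remaining genes that passed in a list of few, and the log2 ratios were added after values were seen. The members and lists were chosen with earlier results of these data known. Probe names were matched by symbol to RefSeq assembly GRCm38.p6. Alternatives were other scalings, background subtraction, other filters, a pseudocount of 10, other eBayes settings, 1 line only, leaving out tumours and, added after values were seen, the mouse number as a block between lines.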

Additional observations from a re-analysis of the deposited data

Results flagged for a closer look

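2 values stood far from the rest of their group in a test of the gap to the nearest sample against the group's range (Dixon's 95% critical value), out of 21 groups tested. Chance gives about 1 in 20. Irf1 was 438 in E0771 normoxic 4, where the other 4 normoxic E0771 tumours had 1195 to 1714. Gbp2b was 30.9 in MC38 normoxic 10, where the other 3 normoxic MC38 tumours had 167 to 208. The same MC38 tumour had the lowest normoxic Ifng, at 25.9, and the highest normoxic Gbp5, at 857. The hypoxic E0771 group of 3 tumours was not tested.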

How the results depend on the processing

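Centred on the median gene, 1 member passed in MC38, 0 between the lines, 190 panel genes in MC38 and 145 over both lines. Reversed there were Socs1 (0.87) and Jak1 (0.19) in MC38, Nos2 in E0771 (0.26) and over both lines (0.12), Jak1 over both lines (0.08), and the between-line difference of effects of Ifngr1 (-0.55) and Irf1 (-0.56). Scaled on the positive-control probes, 1 member and 229 genes passed in MC38, 2 members (Gbp2b -2.74, Ifngr1 -2.41) and 85 genes in E0771, and 193 genes between the lines. Reversed there were, in E0771, Irf1 (-1.04), Gbp5 (-1.13), Socs1 (-0.43) and Socs3 (-0.04); over both lines, Irf1 (-0.44), Gbp5 (-0.36) and Socs1 (-0.28); for the difference of effects, Ifngr1 (-1.19), Irf1 (-1.20), Irf8 (-0.59), Gbp2b (-0.02), Socs1 (-0.31) and Nos2 (-0.32); and between lines, Ifngr1 (-0.64), Irf8 (-0.65), Socs1 (-0.42) and Ifng (-0.54). Without the 5 tumours of fewest counts, 0 members passed in MC38, over both lines and between lines, and 0, 0 and 33 panel genes; reversed were Nos2 (0.21) and Arg1 (0.03) in E0771, the difference of effects of Gbp5 (0.37) and Arg2 (-0.01), and between lines Gbp5 (0.19) and Ifng (-0.41). That fit holds fewer tumours; beyond this the causes were not tested. With background subtracted, 147 genes passed between lines, Ifng there was -0.11, and 1 relation with Ifng passed.

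With each tumour left out in turn, members called ran from 1 to 4 in MC38, 0 to 3 over both lines and 0 to 1 between lines, and relations with Ifng from 1 to 5. Panel calls ran from 171 to 420 in MC38, 0 to 1 in E0771, 0 to 402 over both lines, 72 to 140 between lines and 0 to 132 for the difference of effects, where 132 is without MC38 normoxic 10. Small differences crossed 0 in these fits. Their ranges were, in E0771, Irf1 -0.16 to 0.34, Gbp5 -0.42 to 0.37, Nos2 -0.40 to 0.08, Ifng -1.08 to 0.07; in MC38, Irf1 -0.08 to 0.12, Socs1 -0.41 to 0.04; over both lines, Irf1 -0.07 to 0.18, Gbp5 -0.07 to 0.33; for the difference of effects, Ifngr1 -0.29 to 0.39, Irf1 -0.19 to 0.31, Gbp5 -0.70 to 0.09; between lines, Irf8 -0.03 to 0.28, Gbp5 -0.39 to 0.06, Ifng -0.12 to 0.45.

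A count model on the recovered counts was not run. Within a line, hypoxic and normoxic tumours share no mouse number, so no pairing could be fitted there. Between lines the numbers 4, 12 and 17 recur. The log2 deviations of those 3 pairs from their group means correlated at -0.15, -0.31 and -0.44 over genes. Deviations from the means of small groups cannot show whether a recurring number is the same animal. The labels do not say, and the numbers were taken as separate animals. With the mouse number as a random block (replicate block, consensus correlation -0.79, chosen after seeing the data), 0 members and 69 panel genes passed between lines, Irf1 there was -0.87 (limma, adjusted p = 0.176), and its difference of effects was -0.64, of opposite sign to the value without the block. Values near the negative probes (Gbp2b and Ifng in MC38 hypoxic 14 and 25 and E0771 hypoxic 12) limit what can be said of the size of those falls. The same holds for Irf4, Stat4, Ciita and Il12b in MC38 hypoxic 25, and for the between-line difference of Ido1, which was low in E0771.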
